A study of Mus musculus with 3 samples.

Results

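The 10 genes described here encode the core cardiac transcription factors: the T-box proteins Tbx5 and Tbx20, the zinc finger proteins Gata4, Gata5 and Gata6, the basic helix-loop-helix proteins Hand1 and Hand2, the homeobox protein Nkx2-5, the MADS-box protein Mef2c and the coactivator Myocd. They were picked by symbol from the count matrix, and all 10 were found among its 51923 genes. The cells came from C57BL/6 mouse embryos that carried Mesp1-Cre, a red fluorescent reporter (Ai9) and floxed Wls, whose product carries Wnt ligands to the cell surface. Control embryos were Wls fl/+, so that they too lose 1 copy in recombined cells, and mutant embryos were Wls fl/fl. Mesp1-Cre is active in early mesoderm, which gives rise to the heart and also to blood, vessels and other mesoderm, so both genotypes are models of loss in a lineage and not in the heart alone. Cells were tagged with MULTI-seq lipid barcodes, sorted for the reporter, pooled and captured on the 10x Chromium v3 system. At E8.0 there were 3 control and 3 mutant barcode samples, at E8.5 2 controls and 1 mutant, and at E9.5 6 of each. A further control barcode of 28 cells is labelled E7.5. Whether a barcode holds 1 embryo or several is not given in the sources used here.

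These factors act in combination. Gata4, Gata6, Tbx5, Nkx2-5 and Hand proteins bind near the same heart genes and many of them bind to each other, and Mef2c and Myocd act on genes of the contractile apparatus, Myocd through serum response factor. Tbx5 is known for the first heart field, the sinus venosus and the atria, whereas Mef2c and Hand2 are used in the second heart field, the progenitors marked by Isl1 that add to both poles of the heart tube. Hand1 is also made in extraembryonic and lateral mesoderm, and Gata4 and Gata6 in mesoderm and endoderm outside the heart.

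The matrix held 331587989 UMIs, molecules counted once, in 14777 cells, 9852 control and 4925 mutant, with a median of 21739 UMIs per cell (895 to 102853). The smallest sample was Bar6, with 6 cells of E9.5 control and 134457 UMIs, and the largest was Bar3, with 2508 cells of E8.5 control and 61307782 UMIs. All E8.0 samples were in run 1, all E8.5 samples in run 2, and E9.5 in all 3 runs with both genotypes in each. Wls itself checked the labels: its level at E8.0 was 54.1 to 65.4 CPM (a gene's UMIs scaled to a fixed sample total) in controls and 7.25 to 14.2 CPM in mutants. At E9.5 the 5 controls with at least 20 cells had 35.9 to 46.1 CPM and the 6 mutants 8.54 to 12.1 CPM. Globin made up at least 1% of the UMIs in 2439 cells. Of the cell barcode sequences, 23 occurred in more than 1 run. Group means below leave out Bar6, which the fits keep.

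Promoter stretches are shown for 3 of the factors, because the factors move together across cells (below) and their families have known binding motifs. The sequences are the 250 bases before the start site in RefSeq's annotation (GRCm38.p6), read 5′ to 3′ on the gene's strand, with motif matches on either strand in capitals. Of the factors, Gata5, Hand2, Mef2c, Nkx2-5 and Tbx20 were matched in the promoter table.
Hand2 (chr8:57320733-57320982, plus strand): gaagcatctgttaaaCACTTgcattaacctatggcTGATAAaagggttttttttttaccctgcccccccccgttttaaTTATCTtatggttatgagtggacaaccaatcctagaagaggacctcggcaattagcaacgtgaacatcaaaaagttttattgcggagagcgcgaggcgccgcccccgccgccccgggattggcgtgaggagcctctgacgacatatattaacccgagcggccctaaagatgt
Mef2c (chr13:83503784-83504033, plus strand): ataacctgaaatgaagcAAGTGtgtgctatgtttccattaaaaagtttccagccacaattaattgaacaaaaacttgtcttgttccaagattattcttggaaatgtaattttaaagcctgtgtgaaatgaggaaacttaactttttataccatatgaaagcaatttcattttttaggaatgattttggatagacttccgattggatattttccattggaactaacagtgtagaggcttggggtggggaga
Tbx20 (chr9:24774304-24774553, minus strand): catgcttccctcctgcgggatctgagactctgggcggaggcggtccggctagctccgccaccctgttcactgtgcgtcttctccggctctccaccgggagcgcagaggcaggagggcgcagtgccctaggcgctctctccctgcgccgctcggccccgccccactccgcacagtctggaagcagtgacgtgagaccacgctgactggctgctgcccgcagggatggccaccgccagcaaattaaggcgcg
The GATA family was searched as AGATAA or, in its other form, as TGATAA. The Nkx2-5 family was searched as AAGTG, the T-box family as AGGTGT, and MEF2 by its consensus, and no matches of these 4 families overlap in these stretches. The Hand2 stretch held the second GATA form starting 215 bases before the start, the first form on the opposite strand at 172 bases and the Nkx2-5 family motif on the opposite strand at 235 bases. A GATA motif was found in 16.6% of 32851 promoters of the same length, the Nkx2-5 family motif in 40.7%, the T-box motif in 11.8% and either MEF2 sequence in 0.244%. Mef2c had 3 promoters in the table, and the one shown held the Nkx2-5 family motif at 233 bases. Of the others, not shown, one held that motif at 63 bases and the T-box motif at 216 bases and has 80 bases in Mef2c exons, and one held the Nkx2-5 family motif at 58 bases. The Tbx20 stretch, and the Gata5 and Nkx2-5 promoters that are not shown, held none of these 4 families' motifs as searched. The E-box, the motif of basic helix-loop-helix proteins, was searched as CANNTG and is not in capitals. It was found in 66.2% of promoters, with 2 matches each in the Hand2 and the shown Mef2c stretch, of which 1 each overlaps a match of another family. Gata5, Nkx2-5 and 1 other Mef2c promoter held 1 match each, and Tbx20 held none. All 250 bases of the Hand2 stretch lie in annotated exons of Hand2os1, a noncoding RNA on the opposite strand, and the Mef2c and Tbx20 stretches touch no annotated exon. Hand2os1 (chromosome 8, 57281117 to 57324233) also overlaps the Hand2 gene (57320983 to 57324633), so without knowledge of strand use in the counting, reads of this pair may be exchanged.

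The first question was where in the sorted cells the factors were found. Control cells were split by whether they had a UMI of Tnnt2, cardiac troponin T and a marker of heart muscle, or of Isl1. Such a split depends on depth, since 2937 of 4665 Tnnt2-positive cells and 1703 of 3064 Isl1-positive cells had only 1 or 2 UMIs of the marker. It is also a choice of cells by a heart gene, so the levels are a description. Cells with both markers (1266 in all) had the highest mean of 9 of the 10 factors at E8.0. In E8.0 controls Nkx2-5 averaged 93.3 CPM in cells with both markers, 52.9 CPM in cells with Tnnt2 only, 20.4 CPM in cells with Isl1 only and 1.24 CPM in cells with neither. Myocd followed the same order, with 73.1, 37.0, 6.57 and 2.01 CPM. Both factors had their lowest level in cells with neither marker. The other factors also had a lower mean there than in cells with Isl1 only, such as Gata5 (5.22 and 31.0 CPM) and Hand2 (18.7 and 55.0 CPM). Myocd is known as a coactivator of contractile genes. Gata6 had a wider spread, with 243, 145, 105 and 37.3 CPM in the same order. Hand1 differed from the rest at E8.0: its mean was 224 CPM in cells with Tnnt2 only, 119 CPM with Isl1 only and 90.3 CPM with both.

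**Figure D1:**
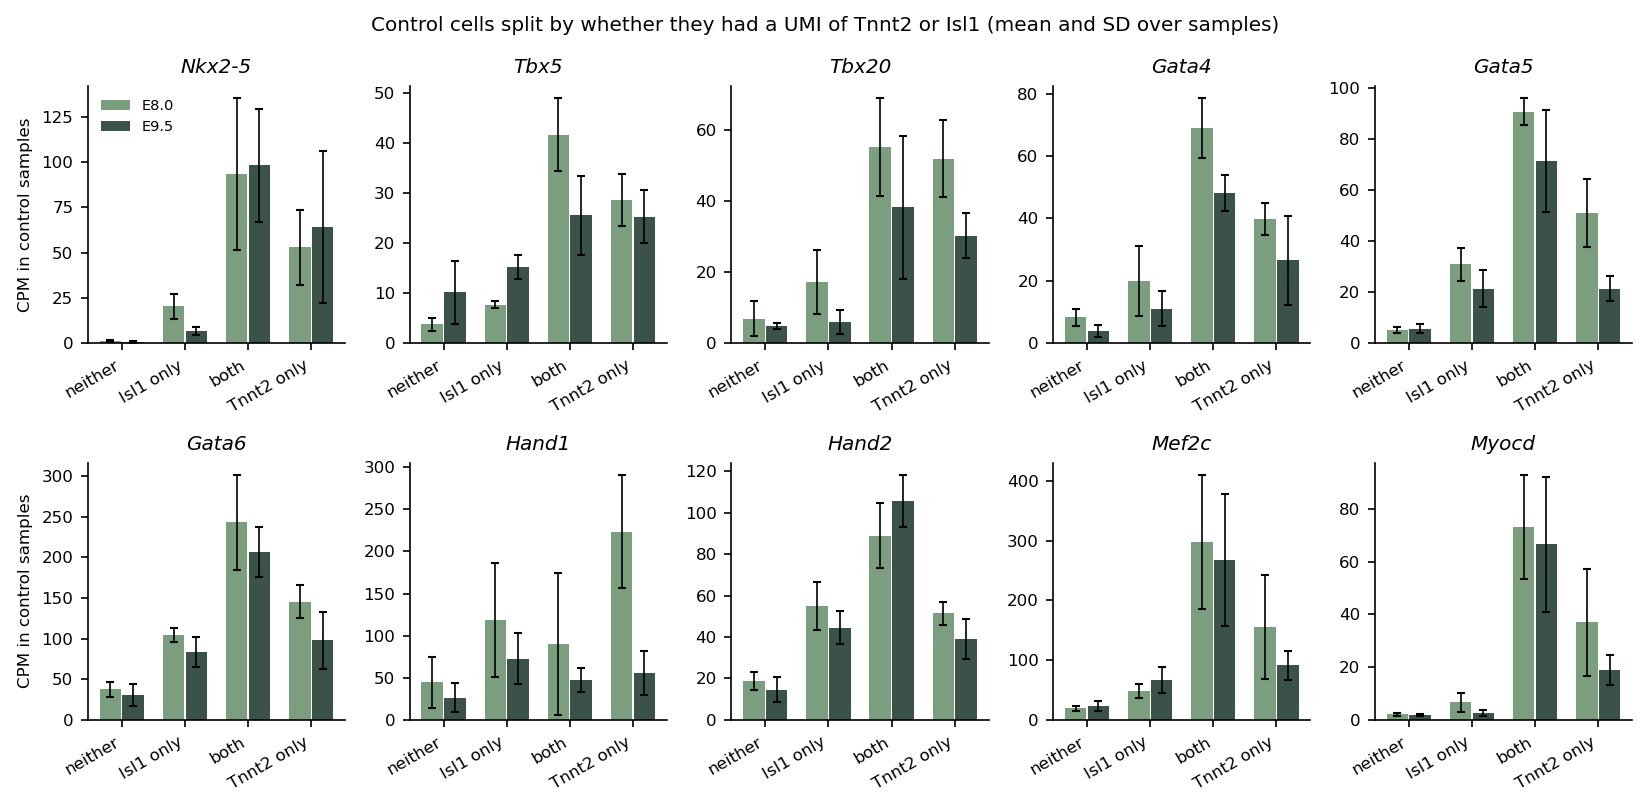
Level of each factor (CPM, bars are means and whiskers SD over control barcode samples with at least 20 cells of the class, 3 samples at E8.0 and 4 or 5 at E9.5) in control cells with a UMI of neither marker, Isl1 only, both or Tnnt2 only. Nkx2-5 and Myocd stand near 0 in cells with neither marker, and Hand1 at E8.0 is highest in cells with Tnnt2 only.

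At E9.5 the order among control cells was kept for Nkx2-5 (98.2 CPM with both markers, 64.1 with Tnnt2 only, 6.96 with Isl1 only) and for Myocd (66.5, 18.8 and 2.63 CPM). Tbx5 was less unequal at that stage: 25.5 CPM with both, 25.3 CPM with Tnnt2 only, 15.2 CPM with Isl1 only and 10.1 CPM with neither. Hand2, a factor of the second heart field, had 106 CPM with both markers against 44.5 CPM with Isl1 only and 39.1 CPM with Tnnt2 only.

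Shares of cells with a UMI were set against globin-high cells, which should lack these factors. Each cell was thinned to 5000 UMIs. Gata6 was then found in 31.6% of other cells and 2.26% of globin-high cells (unthinned 52.5% and 7.05%, with median depths of 21068 and 27083 UMIs). The least often found factor, Myocd, was in 5.99% and 0.384% after thinning (unthinned 12.4% and 1.60%). Mef2c had the highest share in globin-high cells, 3.76% against 21.0% in other cells (unthinned 10.8% and 37.0%), and it is also known from blood and vessel cells. After thinning, E8.0 control samples had a mean of 1.46 ± 0.24 factors per cell (SD, n = 3) and 23.8 ± 4.93% of their cells had 3 or more. In Tnnt2-positive cells of these samples the mean was 3.58 ± 0.42 factors, and 66.4 ± 8.86% of cells had 3 or more.

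Across the cells of a sample, Nkx2-5, Myocd and Mef2c had the highest correlations among the factors and Hand1 the lowest. Over the 18 samples with at least 100 cells, the mean Pearson r of log UMIs per 10000 was 0.65 for Nkx2-5 and Myocd (0.49 to 0.85), 0.59 for Nkx2-5 and Mef2c (0.31 to 0.81) and 0.58 for Mef2c and Myocd (0.26 to 0.80). Gata6 was nearest to Gata4 (mean r 0.50), Hand2 (0.50) and Gata5 (0.49). Hand1 had a mean r of −0.07 with Mef2c, −0.03 with Myocd and −0.02 with Nkx2-5, but 0.37 with Gata6 and 0.35 with Hand2. Of the 45 pairs, 42 had a mean above 0, and no such count over other gene pairs is given here. Cells of a sample share library and depth, and sparse counts lower r, so these values are a description.

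**Figure D2:**
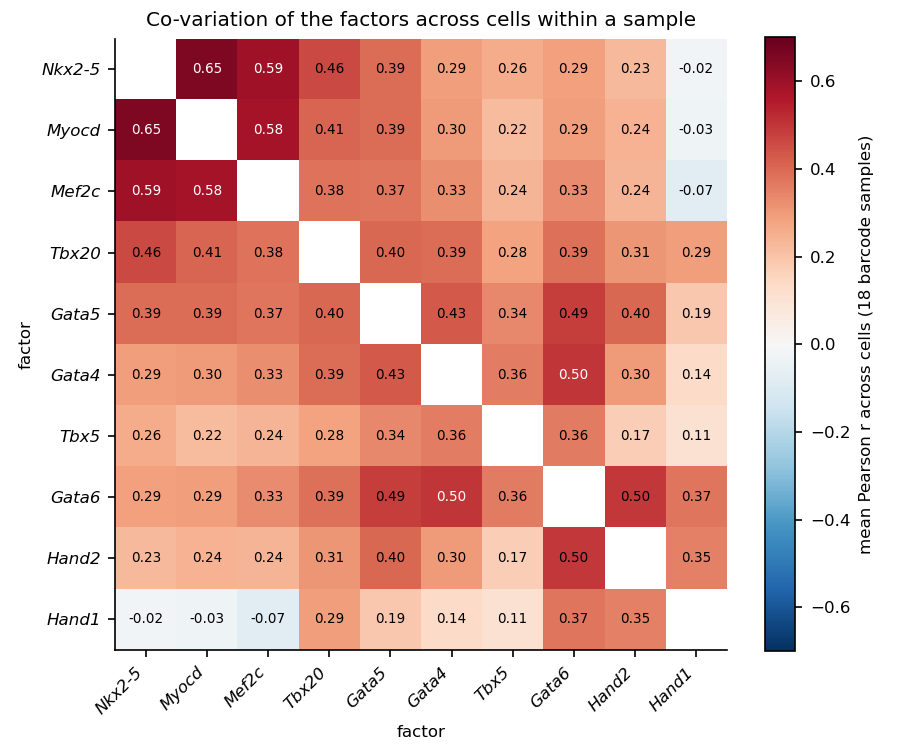
Mean Pearson r across cells within a sample, over 18 barcode samples, for each pair of factors (both axes list the 10 factors, the colour scale is r). Nkx2-5, Myocd and Mef2c form the darkest block (0.58 to 0.65), and Hand1 lies between −0.07 and −0.02 with these 3.

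The genes most like each factor by the same measure, were sought among 12019 genes found in at least 5% of cells. For Nkx2-5 they were Ttn (mean r 0.79), Myl7 (0.79) and Tnnt2 (0.78), all parts of the sarcomere. For Myocd they were Ttn (0.72), Tnnt2 (0.69) and Myl4 (0.68), and for Mef2c Rbm24 (0.65), an RNA-binding protein of muscle, with Myl4 (0.65) and Myl7 (0.64). Tbx20 was nearest to Acta2 (0.59), Cryab (0.58) and Sh3bgr (0.57). Gata5 was nearest to Tnni1 (0.49), Gata6 (0.49) and Tnnt2 (0.45), and Gata4 to Gata6 (0.50), Map1b (0.46) and Myl4 (0.46). Tbx5 and Gata6 shared their nearest gene, Wnt2 (mean r 0.47 and 0.58), a Wnt ligand known from the posterior heart field. The next for Tbx5 were Myl4 (0.38) and Ccdc141 (0.37), and for Gata6 Tceal9 (0.56) and Bex3 (0.56). Hand1 was nearest to Pmp22 (0.68) and to the keratins Krt8 (0.64) and Krt18 (0.56), which are known from simple epithelia and from extraembryonic and coelomic linings. Hand2 was nearest to Hand2os1 (0.57), its overlapping partner, then to Gata6 (0.50) and Bex3 (0.48).

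The next comparison asked how the factors changed from E8.0 to E9.5. Of 20831 genes tested in all cells, 19.5% passed the threshold (10.4% higher and 9.04% lower at E9.5). Among the factors 6 of 10 fell and none rose: Myocd, Tbx20, Gata5, Gata4, Mef2c and Hand2. The median log2 difference of all 10 factors was −0.62, against 0.00317 over all genes. Myocd had 17.8, 15.3 and 35.0 CPM in the 3 E8.0 controls and 7.07 to 12.6 CPM (median 10.3) in the 5 E9.5 controls, so the stages did not overlap in controls. It fell by 1.15 on the log2 scale (SE 0.23, adjusted p = 0.00152). Tbx20, which is needed for growth of the heart chambers, had 29.6, 21.2 and 33.6 CPM at E8.0 and 8.57 to 16.3 CPM at E9.5 in controls, also without overlap, and fell by 0.88 (SE 0.19, adjusted p = 0.00212). Gata5 fell by 0.83 (SE 0.13, adjusted p = 0.000157), Gata4 by 0.64 (adjusted p = 0.0216), Mef2c by 0.61 (adjusted p = 0.0368) and Hand2 by 0.39 (adjusted p = 0.0420). Nkx2-5 (−0.55), Gata6 (−0.34), Hand1 (−0.94) and Tbx5 (0.15) did not pass, with adjusted p-values of 0.213, 0.204, 0.0609 and 0.530. Tbx20, Gata5 and Myocd passed whichever of the 22 samples was left out, and without Bar29 only these 3 did.

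Of 16 targets of these factors 3 rose and 1 fell between the stages, where 10.4% of all genes rose and 9.04% fell. Nppa (3.45), Myl2 (2.43) and Nppb (1.79) rose, and Atp2a2 fell by 0.41. Of 22 other heart regulators and cofactors 3 rose and 4 fell. A difference between these lists and the factors was not tested. All E8.0 samples were in run 1. With run as a further term 5 factors fell (8.15% of all genes did): Nkx2-5 newly passed (−1.21, adjusted p = 0.00241), as it did in run 1 alone (−1.20, adjusted p = 0.00143), and Gata4 (−0.49, adjusted p = 0.105) and Hand2 (−0.31, adjusted p = 0.141) did not pass. Within run 1 alone 7 factors fell and Tbx5 rose (0.36, adjusted p = 0.0105), where 15% of all genes fell and 14.7% rose. In mutants alone 2 factors fell (Gata5 and Myocd), with 5.9% of all genes, and in controls alone 4 (these, Tbx20 and Gata4), with 1.5%. Marker sums of blood, 9202 ± 8310 CPM in E8.0 controls (SD, n = 3) and 69251 ± 51108 CPM in E9.5 controls (n = 5), moved with stage. Without globin-high cells 7 factors and 9.26% of all genes fell.

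The main comparison was mutant against control over all stages, with stage and run as terms. In the sums over all cells 4 factors rose, Tbx5, Tbx20, Gata6 and Mef2c, and none fell. In runs 1, 2 and 3 alone, 0, 0 and 1 factors passed (Gata6 in run 3), where 0.0114%, 0.208% and 0.482% of all genes did. Among all 20831 genes 10.2% passed, 4.47% higher and 5.77% lower. The factors were chosen with earlier results of these data known, so these shares are set beside their count as a description. All 10 factors had a log2 fold change above 0, with a median of 0.47 against 0.0176 over all genes. Without globin-high cells 2 factors rose, Tbx5 and Tbx20, where 4.33% of all genes did. Without E9.5 no factor passed, and 1 of 18646 genes did. In sums over all cells, more cells of a type and more RNA per cell cannot be told apart.

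**Figure D3:**
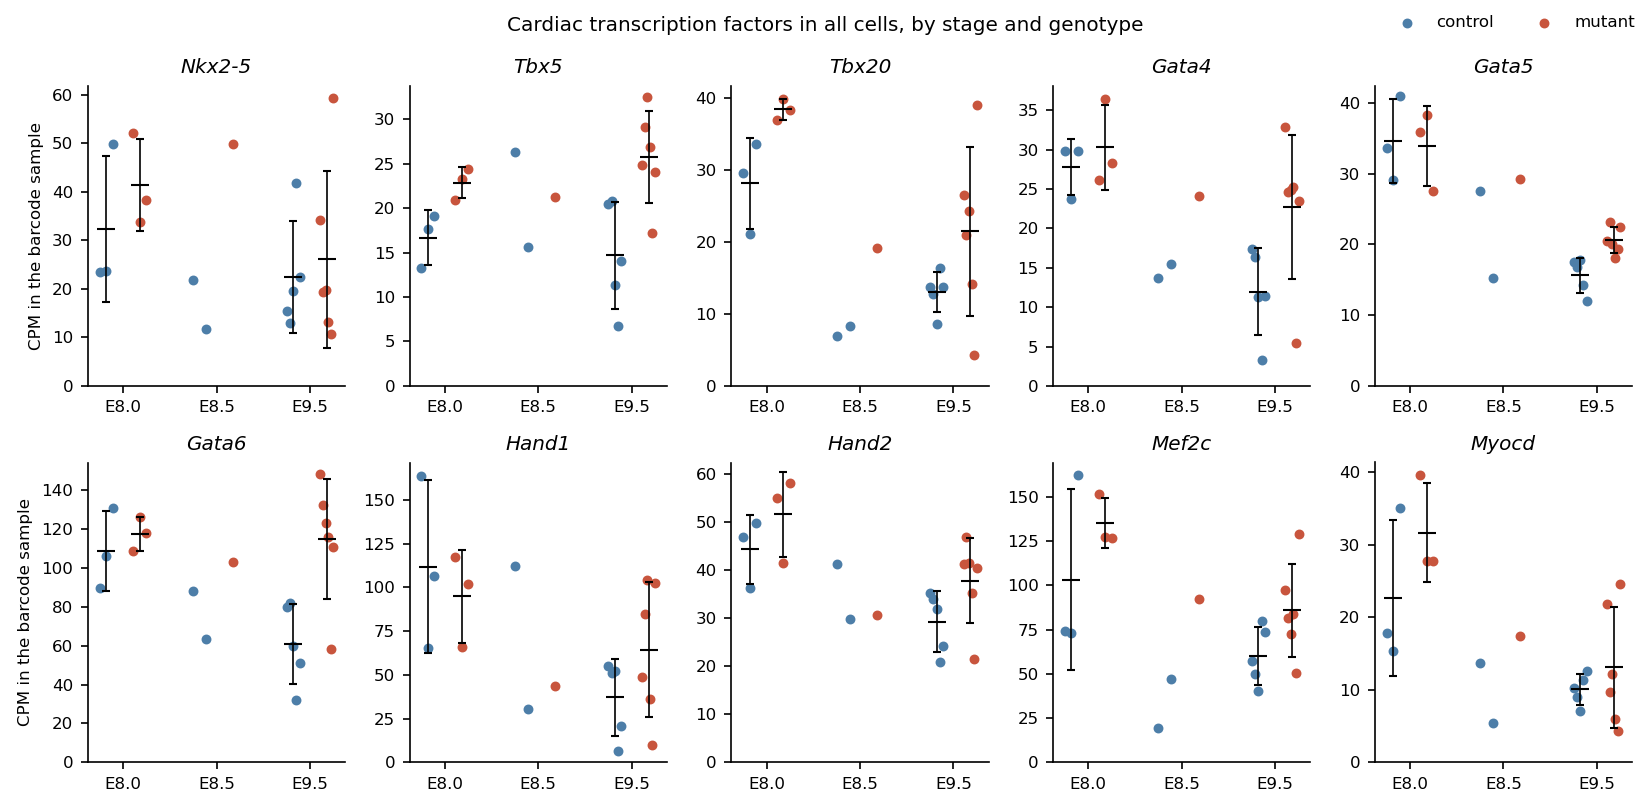
Level of each factor (CPM, vertical axis) in every barcode sample of at least 20 cells, by stage, for controls (blue) and mutants (red), with the mean and SD in groups of 3 or more. At E9.5 the 6 mutants lie mostly above the 5 controls for Tbx5, Gata4 and Gata6, and Bar5, a mutant of 57 cells, is the lowest red point for these 3.

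Tbx5 lies on chromosome 5 (119832668 to 119885219, plus strand, GRCm38) and Tbx20 on chromosome 9 (24718138 to 24774303, minus strand). Tbx5 had 13.2, 17.6 and 19.1 CPM in E8.0 controls and 20.9, 23.2 and 24.4 CPM in E8.0 mutants, so that each mutant stood above each control. At E8.5 the mutant (21.3 CPM) lay between the 2 controls (15.6 and 26.3 CPM, the latter from 34 cells). Among E9.5 controls Tbx5 stood at 6.70, 11.4, 14.1, 20.4 and 20.8 CPM, and E9.5 mutants had 17.2 to 32.4 CPM with a median of 25.8, with only the lowest mutant, Bar5, inside the control range. Over all stages Tbx5 was 1.41-fold higher (log2 fold change 0.49, SE 0.11, adjusted p = 0.00652). Tbx20 had 21.2, 29.6 and 33.6 CPM in E8.0 controls and 37.0, 38.3 and 39.9 CPM in mutants. At E8.5 it had 6.87 and 8.29 CPM in controls and 19.2 CPM in the mutant. At E9.5 controls had 8.57 to 16.3 CPM and mutants 4.31 to 39.0 CPM with a median of 22.6, so the groups overlapped at the low end. Tbx20 was 1.51-fold higher over all stages (0.59, SE 0.13, adjusted p = 0.00746). Tbx5 and Tbx20 passed whichever of the 22 samples was left out.

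Of the GATA factors only Gata6 (chromosome 18, 11052064 to 11085635, plus strand) passed over all stages. At E8.0 the 3 controls (89.6, 106 and 130 CPM) overlapped the 3 mutants (109, 118 and 126 CPM). The E8.5 mutant, at 103 CPM, exceeded both controls of its stage (63.4 and 88.2 CPM). The 5 E9.5 controls stood at 32.2, 51.2, 59.5, 79.7 and 81.7 CPM, against 58.2 to 148 CPM in the mutants with a median of 119. All mutants other than Bar5 stood above every control there. The log2 fold change of Gata6 over all stages was 0.52 (SE 0.15, adjusted p = 0.0346), and it did not pass when any one was left out of Bar24, Bar1, Bar22, Bar23, Bar7, Bar9, Bar19 or Bar10 (largest adjusted p = 0.0866), nor without globin-high cells (0.47, adjusted p = 0.0593). Gata4 had a log2 fold change of 0.48 (SE 0.17, adjusted p = 0.0711) and passed with DESeq2 (adjusted p = 0.0135). Gata5 had 0.22 (SE 0.12, adjusted p = 0.266).

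Mef2c (chromosome 13, 83504034 to 83667080, plus strand), an early factor of both heart fields, had 73.0, 74.1 and 162 CPM in E8.0 controls and 127, 127 and 152 CPM in E8.0 mutants, so that 1 control (Bar29) exceeded all mutants. At E9.5 controls had 40.4 to 80.0 CPM and mutants 50.7 to 129 CPM with a median of 82.6, and the ranges overlapped. Its log2 fold change over all stages was 0.51 (SE 0.15, adjusted p = 0.0292). It did not pass when any one was left out of Bar24, Bar1, Bar22, Bar23 or Bar9 (largest adjusted p = 0.109), nor without globin-high cells (0.44, adjusted p = 0.0563), nor with the share of Y-linked UMIs as a covariate (0.49, adjusted p = 0.0923), a fit in which Gata4 newly passed (0.75, adjusted p = 0.0197). Nkx2-5 (0.46, SE 0.20, adjusted p = 0.158) and Myocd (0.41, SE 0.17, adjusted p = 0.142) did not pass. At E8.5 the Nkx2-5 level was 49.8 CPM in the mutant and 11.7 and 21.8 CPM in the controls. The cardiomyocyte marker sum of 7 genes at E8.5 was 5415 CPM in the mutant and 598 and 1090 CPM in the controls, and its part in the Nkx2-5 level was not tested. Hand1 (0.22, SE 0.33, adjusted p = 0.774) and Hand2 (0.19, SE 0.11, adjusted p = 0.359) did not pass either. Hand1 spread most among replicates, from 9.70 to 104 CPM in E9.5 mutants and from 65.1 to 163 CPM in E8.0 controls.

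The genotype difference was then taken at each stage. At E8.0 no factor passed, and over 16416 genes 0.0244% did. With edgeR, 2 factors, Tbx5 (0.37, SE 0.13) and Tbx20 (0.38, SE 0.14), had an unadjusted p under 0.05 in that fit, as did 9.84% of all genes, and DESeq2 passed none. Without globin-high cells no factor had an unadjusted p under 0.05 there, 5 of 10 were above 0 and their median was 0.061, against 8 and 0.21 with all cells. Globin-high cells were 98 of 367, 186 of 614 and 48 of 568 in E8.0 controls and 51 of 392, 78 of 701 and 18 of 560 in E8.0 mutants. Sex moved with genotype at this stage: Y-linked UMIs made up 94.8% to 96.4% of Y-linked plus Xist UMIs in mutants and 6.37%, 8.71% and 51.7% in controls. With that share as a covariate 1 of 10 factors was above 0 at E8.0, so sex and genotype cannot be told apart there. The cardiomyocyte marker sum at E8.0 was 1863 ± 510 CPM in controls and 3241 ± 136 CPM in mutants (SD, n = 3 each), and its part in the values of the factors was not tested.

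At E9.5 Tbx5, Tbx20, Gata4, Gata6 and Mef2c rose, 5 of 10 factors, while 10.3% of 17227 genes passed (5.71% higher and 4.55% lower). Gata6 was 1.82-fold higher (log2 fold change 0.86, SE 0.20, adjusted p = 0.0159) and Gata4 1.73-fold higher (0.79, SE 0.23, adjusted p = 0.0389). Gata4 had 3.35, 11.3, 11.4, 16.4 and 17.4 CPM in controls, and mutants had 5.39 CPM (Bar5) and otherwise 23.5 to 32.9 CPM. Tbx5 was 1.60-fold higher (0.68, SE 0.14, adjusted p = 0.00738), Tbx20 1.58-fold (0.66, SE 0.19, adjusted p = 0.0407) and Mef2c 1.41-fold (0.50, SE 0.12, adjusted p = 0.0149). Gata5 had 12.0 to 17.8 CPM in controls, leaving out Bar6, and 18.1 to 23.1 CPM in mutants, without overlap. Its log2 fold change of 0.39 (SE 0.14) did not pass in the main fit, which keeps Bar6 (adjusted p = 0.102). Gata5 passed in samples of 20 or more cells (0.37, adjusted p = 0.0486), with DESeq2 (adjusted p = 0.0202) and without globin-high cells (0.44, adjusted p = 0.0453). It did not pass with RLE factors (adjusted p = 0.0657), no filter on low counts (adjusted p = 0.136) or the Y-linked share as a covariate (adjusted p = 0.145). Hand1 (0.79, SE 0.41), Hand2 (0.34, SE 0.15), Nkx2-5 (0.28, SE 0.22) and Myocd (0.22, SE 0.18) did not pass, with adjusted p-values from 0.165 (Hand2) to 0.496 (Myocd). Sex was uneven at E9.5 too: the Y-linked share had a median of 5.75% in 6 controls (3.83% to 100%) and 50.6% in 6 mutants (4.15% to 99.2%). With that share as a covariate the 5 factors passed and Hand1 newly did (1.34, adjusted p = 0.0185), where 4.78% of all genes rose.

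Only Tbx5 passed at E9.5 whichever sample was left out. The count of 5 factors fell to 2 without Bar22, Bar23 or Bar9, which are the 3 largest controls, and to 3 without Bar19 or Bar8. Calls over all genes fell too, from 1766 to 704, 603 and 1110 without these controls, and to 1103 and 1522 without Bar19 and Bar8. Gata6 did not pass without Bar9 (adjusted p = 0.0522). Within runs, Gata6 was 0.66 in run 1 (adjusted p = 0.0159), 0.61 in run 2 (1 mutant, adjusted p = 0.784) and 1.41 in run 3 (adjusted p = 0.0353), and Tbx5 was 0.56 (adjusted p = 0.0257), 1.11 (adjusted p = 0.851) and 0.92 (adjusted p = 0.219). Gata4 was 0.61 (adjusted p = 0.0192), −0.51 (adjusted p = 0.999) and 1.53 (adjusted p = 0.162) in the same order. Mef2c was 0.60 (adjusted p = 0.0270), 0.79 (adjusted p = 0.669) and 0.35 (adjusted p = 0.450), and Tbx20 0.62 in run 1 (adjusted p = 0.0915) and 0.96 in run 3 (adjusted p = 0.182). The proepicardial marker sum was 43.5 ± 11.5 CPM in controls (SD, n = 5) and 77.7 ± 21.6 CPM in mutants (n = 6). Its 4 genes were all detected in every one of these samples, and its part in the rise of the factors was not tested. Without globin-high cells 6 factors and 9.58% of all genes rose, with Gata6 at 0.93 (adjusted p = 0.00287).

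Whether the genotype difference itself changed between E8.0 and E9.5 was tested as an interaction. No factor passed, while 0.464% of 17872 genes did. With edgeR 3 factors had an unadjusted p under 0.05, as did 11.5% of all genes: Gata6 (difference 0.83, SE 0.29, adjusted p = 0.268), Gata4 (0.74, SE 0.32, adjusted p = 0.384) and Gata5 (0.49, SE 0.22, adjusted p = 0.404), and DESeq2 passed none. That Gata4 and Gata6 passed at E9.5 and not at E8.0 is thus not shown to be a change between the stages.

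**Figure D4:**
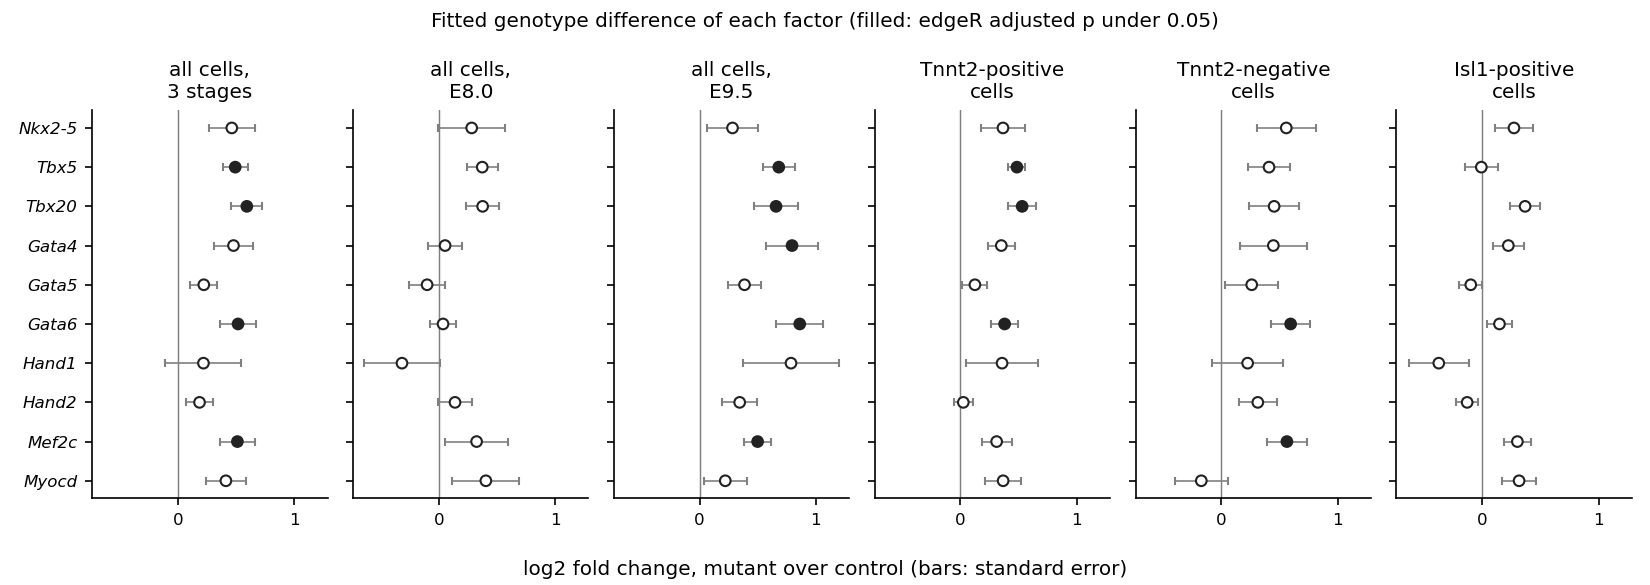
Fitted log2 fold change of each factor, mutant over control (horizontal axis, bars are standard errors), in 6 fits. Filled points passed an edgeR adjusted p under 0.05: 4 factors in all cells, none at E8.0, 5 at E9.5, 3 in Tnnt2-positive, 2 in Tnnt2-negative and none in Isl1-positive cells.

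The comparison was repeated within Tnnt2-positive cells. A Tnnt2 UMI alone does not mark heart muscle, since one was found in 16.4% of globin-high cells and 34.6% of other cells (4.40% and 18.4% after thinning). Depth also differed with genotype, since every mutant had a lower median depth than every control of its stage and run. At E8.0 these medians were 25075 to 27469 UMIs per cell in mutants and 27742.5 to 29940 in controls. The part of depth in the class values was not tested, and the class called after thinning is given below. Of 16122 genes 8.23% passed (3.8% higher and 4.43% lower) in 18 samples, and 3 factors rose: Tbx5, Tbx20 and Gata6. In E8.0 controls Tbx5 had 28.9, 32.3 and 37.7 CPM and in E8.0 mutants 38.0, 44.1 and 46.6 CPM. In E9.5 controls it had 17.1, 21.0, 23.6, 30.1 and 31.2 CPM and in E9.5 mutants 35.5, 40.4, 42.2, 43.2 and 43.4 CPM. At both stages every mutant stood above every control. Tbx5 was 1.40-fold higher (log2 fold change 0.49, SE 0.07, adjusted p = 0.00337). Tbx20 had 42.6, 51.9 and 64.9 CPM in E8.0 controls and 63.5, 67.6 and 70.2 CPM in mutants, and 23.9 to 49.7 CPM in E9.5 controls and 28.7 to 84.7 CPM in mutants, with overlap at both stages. It was 1.44-fold higher (0.53, SE 0.12, adjusted p = 0.0128). Gata6 was 1.30-fold higher (0.38, SE 0.11, adjusted p = 0.0459), with E9.5 mutants (156 to 243 CPM) above all E9.5 controls (82.3 to 150 CPM). Without globin-high cells Gata6 did not pass (0.32, adjusted p = 0.111) and Tbx5 and Tbx20 did, where 2.74% of all genes rose.

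Gata4 in Tnnt2-positive cells had 9.32 to 39.0 CPM in E9.5 controls and 43.0 to 57.6 CPM in E9.5 mutants, without overlap, but over all stages its log2 fold change of 0.35 (SE 0.12) did not pass (adjusted p = 0.0750). It passed with DESeq2 (adjusted p = 0.0164) and in the E9.5 samples alone (0.62, adjusted p = 0.0389), where 4 factors (Tbx5, Tbx20, Gata4 and Gata6) and 3.05% of all genes rose. Mef2c (0.31, SE 0.13, adjusted p = 0.150), Nkx2-5 (0.37, SE 0.19, adjusted p = 0.252) and Myocd (0.37, SE 0.15, adjusted p = 0.154) did not pass. Hand2 stood at 0.02 (SE 0.08, 95% interval −0.14 to 0.19, adjusted p = 0.921), and Gata5 at 0.12 (adjusted p = 0.543) and Hand1 at 0.36 (adjusted p = 0.547) did not pass. Tnnt2 itself, which defined the cells, averaged 771 ± 208 CPM in E8.0 control and 1161 ± 62.7 CPM in E8.0 mutant cells of this class (SD, n = 3 each), so the class was not equal in its own marker. Where cells needed 3 UMIs of Tnnt2 (1.4% of all genes rose), Tbx20 passed (0.36, adjusted p = 0.0371) and Tbx5 (0.26, adjusted p = 0.142) and Gata6 (0.16, adjusted p = 0.535) did not. With the class called after thinning (2.67% of all genes rose), Tbx5 (0.34, adjusted p = 0.0239) and Tbx20 (0.41, adjusted p = 0.0181) passed and Gata6 (0.24, adjusted p = 0.159) did not. Of 18 fits that each left out 1 sample, Tbx5 and Tbx20 passed in all, while Gata6 passed only without Bar26, Bar29, Bar25 or Bar4. In run 1 alone, and with the Y-linked share as a covariate, Tbx5 was the 1 factor that passed, where 0.284% and 0.856% of all genes rose.

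In Isl1-positive cells no factor passed, and 1.13% of 15955 genes did. That count of 181 genes was not stable: it was 1 without Bar3, Bar1, Bar22 or Bar9, 2 without Bar23 and 522 without Bar20, and Tbx20 passed without Bar25. Tbx5 gave −0.01 (SE 0.14, 95% interval −0.28 to 0.27, adjusted p = 0.999), with E9.5 controls at 13.8 to 23.9 CPM and E9.5 mutants at 7.85 to 24.8 CPM. Tbx20 (0.37, SE 0.13, adjusted p = 0.149), Mef2c (0.30, SE 0.12, adjusted p = 0.181) and Myocd (0.32, SE 0.15, adjusted p = 0.284) had unadjusted p-values under 0.05 in edgeR, as did 16.6% of all genes, and DESeq2 passed none of the 10. Gata6 had 97.5 to 149 CPM in E9.5 controls and 114 to 232 CPM in E9.5 mutants, with a log2 fold change over stages of 0.15 (SE 0.11, adjusted p = 0.563). Hand1 (−0.37, SE 0.26), Hand2 (−0.13, SE 0.10) and Gata5 (−0.10, SE 0.10) were below 0 and did not pass. That Tbx5 passed in Tnnt2-positive and not in Isl1-positive cells was not tested as a difference, since 1266 cells belong to both.

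In Tnnt2-negative cells Gata6 (0.60, SE 0.16, adjusted p = 0.0292) and Mef2c (0.56, SE 0.17, adjusted p = 0.0460) rose, while 8.07% of 19244 genes passed (2.93% higher and 5.14% lower). Neither passed without Bar22 or without Bar23, Gata6 also did not pass without Bar9 or Bar10, and Mef2c also did not pass without Bar24, Bar27, Bar1, Bar4, Bar19, Bar21, Bar5 or Bar8 (largest adjusted p = 0.0605 and 0.110). Tbx5 (0.41, SE 0.18, adjusted p = 0.179) and Tbx20 (0.45, SE 0.22, adjusted p = 0.224) did not pass. The genotype difference in Tnnt2-positive minus that in Tnnt2-negative cells was tested in 36 sums. No gene of 17091 passed (0%), although 743 had an unadjusted p under 0.05, and DESeq2 passed 2. Among the factors Hand2 (−0.37, SE 0.16) and Myocd (0.47, SE 0.21) had an unadjusted p under 0.05 and an adjusted p of 1.

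The share of Tnnt2-positive cells was compared next. Since 1 UMI made a cell positive, this share also depends on the Tnnt2 level per cell. After thinning it was higher in mutants by 5.31 percentage points, as a mean over 5 strata of stage and run (exact permutation p = 0.0213, two-sided, 20 samples). The difference was 2.85 points at E8.0, 14.1 at E8.5 (1 mutant), and 1.89, −1.85 and 9.56 in runs 1, 2 and 3 at E9.5. Without thinning it was 4.31 points (exact permutation p = 0.0875), without globin-high cells 4.34 points (exact permutation p = 0.104) and without Bar1, the E8.5 mutant, 3.11 points (exact permutation p = 0.12). Without Bar2 and without Bar3 the p was 0.06 by the same exact permutation. Isl1-positive cells differed by 0.59 points (exact permutation p = 0.412). By factor, cells with a Gata6 UMI after thinning made up 20.0 ± 4.25% of E9.5 controls (SD, n = 5) and 32.5 ± 6.20% of E9.5 mutants (n = 6), against 35.6 ± 8.12% and 48.1 ± 9.69% without thinning (median depths of 21991 and 16399 UMIs). Gata4 was in 5.56 ± 1.52% and 10.0 ± 1.58% after thinning, and in 10.96 ± 5.23% and 17.6 ± 5.84% without it.

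The other genes of the network were described beside the factors. Of 16 genes that these factors are known to regulate, 7 rose in mutants over all stages (4.47% of all genes did) and none fell, with a median log2 fold change of 0.81. They included Ryr2 (0.73), the calcium release channel, Actn2 (0.94), a sarcomere crosslinker, and the myosins Myl2 (0.94) and Myh7 (1.05). Of 22 other heart regulators and cofactors 2 rose, Zfpm2 (0.45), the partner of GATA factors, and Hey1 (0.41), and none fell, with a median of 0.20. Without globin-high cells the counts were 3 of 16 and 0 of 22, where 4.33% of all genes rose. At E9.5 1 target rose (Ryr2, 0.61), and of 21 regulators tested 3 rose (5.71% of all genes did). Wt1, a factor of the proepicardium and epicardium, rose by 1.28 and Hey2, a ventricular factor, by 0.81, while Foxc1, a forkhead factor known from mesoderm, fell by 0.82. At E9.5 without globin-high cells 6 of 20 regulators rose and 2 fell, and 1 target rose, where 1568 of 16363 genes rose and 935 fell. Within Tnnt2-positive cells 8 of 16 targets rose (3.8% of all genes did), Ryr2, Actn2, Myh7 and Ttn with the lowest p (0.70 to 0.92). Of 21 regulators tested there Tbx1, a factor of the pharyngeal second heart field, fell by 0.61, and Zfpm2 and Tbx2, each 0.47, rose. Without globin-high cells 4 of 16 targets rose there (2.74% of all genes did), and of the regulators Tbx1 alone passed. The 16 targets include Tnnt2, which defines the Tnnt2-positive cells, and all 7 genes of the cardiomyocyte marker sum. The target counts are thus not a measure apart from heart muscle markers. In Isl1-positive cells no target and no regulator passed, although Ryr2 did with RLE factors and Foxc1 did without globin-high cells.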

How the data were processed

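Single-cell RNA was counted in 22 barcode samples in 3 sequencing runs. Per the submitters' processing notes, reads were handled with kallisto and bustools, the build was GRCm38, and Cell Ranger is named too, its role not given in the sources used here. Per the labels, the 10x v3 setting was used and the MULTI-seq barcodes were demultiplexed by the authors. The deposited matrix holds raw UMI counts for 51923 genes and 14777 cells. The deposited per-cell table gives run, barcode, stage and condition. A dense copy of the counts was not used. Use of strand and filters on cells are not given in the sources used here.

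UMI counts were summed per barcode sample over all cells, over cells with at least 1 UMI of Tnnt2 (4665 cells) or of Isl1 (3064 cells), and over Tnnt2-negative cells. Sums of a class were used where a sample had at least 20 of its cells. CPM is the UMI count scaled to the sample's total. Tests used the quasi-likelihood F test of edgeR 4.0.16 (R 4.3.3; two-sided; low counts removed by filterByExpr; scaling by TMM; Benjamini-Hochberg adjustment over all genes tested, threshold 0.05). Genotype comparisons had stage and run as terms where these varied, the stage comparison had genotype, and the comparison of Tnnt2 classes had the barcode sample as a block. Standard errors were computed as the size of the log2 fold change over the square root of F. DESeq2 1.42.0, other size factors, no filter on low counts, single runs or stages, the share of Y-linked UMIs as a covariate, other class rules, removal of cells with at least 1% globin UMIs and each sample left out in turn were the alternatives. Those restricted to E8.0 or E9.5, or without globin-high cells, within Tnnt2-positive and Isl1-positive cells were added after the data were seen. Shares of cells were compared after thinning each cell to 5000 UMIs, which left out 447 shallower cells, with an exact permutation of the genotype labels within stage and run. No doublet caller was run. The labels do not say whether a barcode holds 1 embryo or several, so p-values measure the spread between barcode samples. The fits were tested on simulated counts with the same mean profile in every sample and the depths of the real samples. These counts had no stage or run differences, and each gene's spread was taken from the trend over genes. Genes with a spread above that trend were thus not represented. Of genes given a log2 change of 1, 40% (interaction) to 83% (Tnnt2-positive cells) were recovered. Smaller changes were not simulated.

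The 10 factors and the other gene lists were chosen with earlier results of these data known. The text names all 10 factors, the 3 genes most like each, and of each other list up to 4 genes with the lowest p among those that passed in the genotype comparison over all cells. Genes of these lists named in the other comparisons, by their lowest p there, were chosen after their values were seen. A result for one further gene of these lists is not reported here.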

Additional observations from a re-analysis of the deposited data

Results flagged for a closer look

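In 60 groups of 4 to 10 samples (10 factors, 3 sets of cells, 2 genotypes at E9.5), 6 held a sample whose gap to its neighbour was large for the group's range by Dixon's 95% criterion. Chance gives such a gap in about 1 in 20 groups. In all cells, Gata4 was lowest in the E9.5 mutant Bar5 at 5.39 CPM, from 57 cells, and the other mutants had 23.5 to 32.9 CPM. The other gaps were all in Isl1-positive cells at E9.5. Among controls, Bar7 was highest for Gata5 (78.0 CPM, others 38.5 to 42.7), Hand2 (111 CPM, others 63.7 to 71.9) and Nkx2-5 (123 CPM, others 33.3 to 58.5), and Bar4 was lowest for Gata6 (97.5 CPM, others 134 to 149). Among mutants, Bar8 was highest for Nkx2-5 (118 CPM, others 36.7 to 52.5). Bar7 had 22 and Bar8 27 Isl1-positive cells.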

How the results depend on the processing

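For the 10 factors in 9 comparisons, 2277 values were recomputed under alternatives: 2020 kept their direction and side of the threshold, 128 no longer passed, 44 newly passed and 85 changed sign. Of 563 values for the 20 results that passed, 434 still passed, 128 did not and 1 changed sign (Gata4 at E9.5 in run 2 alone). The cause of these changes was not tested. The count of factors that passed in all cells was 2 without globin-high cells (1910 of 19892 genes passed) and without E8.5 (1455 of 20401), 0 without E9.5 (1 of 18646), and 0, 0 and 1 in runs 1, 2 and 3 alone (2 of 17577, 27 of 12966 and 57 of 11838). At E9.5 it was 0 in run 2 (176 of 8584) and 1 in run 3 alone (58 of 11111). The count by stage was 2 in mutants alone (2578 of 18999). In Tnnt2-positive cells it was 7 with no filter on low counts (2135 of 32383), 1 in run 1 alone (55 of 14433), 0 in run 3 alone (0 of 8289), 1 with male share as a covariate (221 of 16122), 1 where the class needed 3 UMIs (360 of 13628) and 0 at E8.0 alone (4 of 13687). In Tnnt2-negative cells it was 1 with the class called after thinning (1810 of 20213). With no filter it was 2 for the interaction (669 of 34851), 2 in Isl1-positive cells (940 of 31076) and 1 for the difference between Tnnt2 classes (142 of 35384). Leaving out 1 sample at a time gave counts of 2 to 6 in all cells, 2 to 6 at E9.5, 3 to 7 by stage, 2 to 5 in Tnnt2-positive, 0 to 1 in Isl1-positive and 0 to 3 in Tnnt2-negative cells. In the same order, 1259 to 2479, 603 to 2353, 2903 to 4522, 564 to 1573, 1 to 522 and 890 to 1968 of all genes passed. The share of Tnnt2-positive cells differed by 4.31 points without thinning, 4.34 points without globin-high cells and 3.11 to 7.10 points with 1 sample left out. The share of Isl1-positive cells differed by −0.40 points without thinning and −0.0405 points without globin-high cells.

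Signs that changed were as follows, as log2 differences, none with an adjusted p under 0.05. In all cells Hand1 was −0.33 without E9.5 and −0.93 in run 2, and Hand2 −0.20 in run 2. At E8.0 without globin-high cells Gata4 was −0.083, Gata6 −0.12 and Hand2 −0.034. At E8.0 with male share as a covariate Nkx2-5 was −1.25, Tbx20 −0.17, Gata4 −0.073, Gata6 −0.47, Hand2 −0.18, Mef2c −1.31 and Myocd −1.15. At E9.5 in run 2 Nkx2-5 was −0.30, Gata4 −0.51 and Hand1 −1.71, and Myocd was −0.0062 in run 1. In the interaction Nkx2-5 was −0.068 with DESeq2, −0.059 with no filter and −0.0070 in samples of 20 or more cells. By stage Tbx5 was −0.048 in controls alone and Gata6 0.12 in mutants alone. In Tnnt2-positive cells Nkx2-5 was −0.035 in run 3, Gata5 −0.029 in run 1, −0.0061 with 3 UMIs and −0.12 at E8.0, and Hand1 −0.42 at E8.0. Hand2 there was −0.029 with no filter, −0.086 in run 3, −0.0094 with male share, −0.15 with 3 UMIs, −0.064 after thinning and −0.044 without globin-high cells. In Isl1-positive cells Tbx5 was 0.0084 with RLE factors, 0.048 in run 1, 0.26 at E8.0 and 0.0020 without globin-high cells. Gata4 there was −0.17 and Gata6 −0.059 with 3 UMIs, Hand1 0.88 in run 3 and 0.022 with male share, Hand2 0.012 at E8.0 and Myocd −0.017 at E9.5. For the difference between Tnnt2 classes Tbx5 was −0.027 with 3 UMIs and −0.016 after thinning. With 1 sample left out the ranges that crossed 0 were, at E8.0, Gata4 −0.11 to 0.14, Gata5 −0.205 to 0.040, Gata6 −0.071 to 0.15 and Hand1 −0.58 to 0.086. In the interaction they were Nkx2-5 −0.41 to 0.20, Mef2c −0.27 to 0.35 and Myocd −0.60 to 0.023. Within classes they were Hand2 −0.026 to 0.063 (Tnnt2-positive), Tbx5 −0.090 to 0.068 (Isl1-positive) and Myocd −0.34 to 0.0053 (Tnnt2-negative). Between classes they were Tbx20 −0.28 to 0.011, Gata5 −0.24 to 0.065, Hand1 −0.14 to 0.13 and Mef2c −0.26 to 0.011.

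Over all genes the main counts against DESeq2 were 2132 and 3274 in all cells, 4 and 45 at E8.0, 1766 and 2701 at E9.5, 83 and 395 for the interaction and 181 and 757 in Isl1-positive cells. In all cells RLE factors gave 1441 higher and 966 lower against 931 and 1201 with TMM. The interaction and the stage comparison were not run in runs 2 and 3 alone, nor Tnnt2-positive and Isl1-positive cells in run 2 alone. No paired analysis was possible because the labels give barcode numbers that are not shared between control and mutant samples. The comparison of Tnnt2 classes paired the 2 sums of each sample.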

Other observations

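The E7.5 control barcode has no mutant counterpart, and its stage is compared with no other. Its 28 cells held 496508 UMIs, of which 25 were Mef2c (50.4 CPM). Gata5 and Gata6 had 2 UMIs each, Nkx2-5, Tbx5 and Hand2 1 each, and Tbx20, Gata4, Hand1 and Myocd 0, which allows up to 6.04 CPM (3 UMIs, counting error only).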
